A study of Mus musculus with 232 samples.

Results

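The apoptosis genes followed here in single mouse embryonic stem cells (mESCs) were the initiator caspases Casp2 and Casp8, the endoplasmic reticulum protein gene Ei24, the BH3-only gene Bcl2l11, the effectors Bax and Bak1, and the anti-apoptotic genes Mcl1, Bcl2l1 and Bcl2. They were taken as a named list, matched by gene identifier, and all 9 were among the 42493 genes quantified in each cell. A filter requiring a mean of at least 5 counts per cell kept 11227 genes and 7 of the 9. Bak1 and Bcl2, with mean counts of 1.803 and 0.820, did not pass and are described by their counts only.

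All cells were mESCs grown with LIF and the 2i inhibitors PD0325901 and CHIR99021, and the methods place capture at 24 h after transfection. In the first condition, called Dgcr8-/-, knockout cells were mock transfected. In the mimic conditions, Dgcr8-/- cells received a miR-294 mimic or a let-7 mimic. Wild-type (WT) cells, titled V6.5, were of the parental line and carried an intact Dgcr8 gene, with no mimic named in their labels. The methods do not say whether WT cells were mock transfected, so treatment as well as genotype may differ between Dgcr8-/- and WT cells. DGCR8 is the RNA-binding partner of DROSHA, so cells without it lack most mature miRNAs, and each mimic supplies the seed of 1 miRNA family. The sample titles, the design text and the methods name the let-7 mimic differently (let-7i, let-7b and let-7c), so it is called let-7 here. The knockout and the parental cells were each 1 established line, and capture sites with dead or several cells had been discarded by the authors on inspection, so that the apoptosis genes were measured in cells scored as alive.

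Apoptosis runs through 2 routes. In the mitochondrial route, BH3-only proteins such as BIM (the product of Bcl2l11) relieve the restraint that MCL1, BCL-XL (Bcl2l1) and BCL2 place on BAX and BAK, which then permeabilise the outer mitochondrial membrane. In the death receptor route, FADD and RIPK1 assemble with caspase 8 below the receptors. Caspase 2 is activated on a PIDD1 and CRADD (RAIDD) platform, and Ei24 is a p53-induced gene. Pluripotent stem cells are known to be sensitive to DNA damage, and the miR-290 family, to which miR-294 belongs, is the main miRNA family of mESCs.

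The series held 232 sequencing runs under 182 cell titles. Of the 50 titles with 2 runs, 48 had runs that were nearly the same (Pearson's r of 0.97 to 0.99 on log2 CPM, where CPM is a count scaled by the total of its cell), and 2, a let-7 and a WT cell, had runs unlike each other (r of 0.478 and 0.498). Both were summed as labelled. In 4 cases 2 consecutively numbered titles held the same library (r of 0.980 to 0.991, where no other pair exceeded 0.704) and were merged, 3 of them in let-7 and 1 in miR-294. This left 178 cells: 60 Dgcr8-/-, 16 WT, 57 miR-294 and 45 let-7. The miR-294 cells included 3 titled MIR_294 where the rest are titled miRNA294, and leaving these out was among the alternatives tried. Total counts ranged from 513521 to 3979274 per cell, with medians of 1307481 to 1574733 in the 4 conditions. Each condition was captured on 1 chip, and no label names separate cultures, so chip and condition cannot be told apart. Cells of 1 chip are not replicates of a condition, so that values over cells are given with their SD (n counts cells) and no test was made. Every cell had counts for at least 1 of the embryonic stem cell markers (Pou5f1, Nanog, Sox2, Sall4, Esrrb, Klf4 and Zfp42). Their median summed level was 2514 CPM in Dgcr8-/-, 2681 in WT, 3423 in miR-294 and 1049 in let-7 cells. The 8 fibroblast markers had a median summed level of 0 in every condition and were counted in 5 Dgcr8-/-, 1 WT, 5 miR-294 and 8 let-7 cells, with Col1a2, Col3a1, Lum and Postn at 0 throughout. Dgcr8 itself had mean normalised counts of 52.3 ± 119 in Dgcr8-/-, 68.7 ± 89.8 in miR-294 and 41.8 ± 65.4 in let-7 cells against 120.1 ± 166 in WT cells. A gene count includes reads from any exons that a deletion leaves, so it does not check the genotype of a cell.

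The mature miRNAs are shown because their seeds (bases 2 to 8, in capitals) set which messages they pair with. The 3 let-7 members named in the labels and methods share 1 seed.

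mmu-miR-294-3p: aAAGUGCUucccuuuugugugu
mmu-let-7b-5p: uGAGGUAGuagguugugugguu
mmu-let-7c-5p: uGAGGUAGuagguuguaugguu
mmu-let-7i-5p: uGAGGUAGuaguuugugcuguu

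These are RefSeq sequences (GRCm38.p6), with miR-294 encoded at chr7:3220691-3220712 on the plus strand. The perfect match to the miR-294 seed, AGCACTT on the message strand, was searched in the longest annotated 3′ UTR of each gene (Gencode M21, GRCm38). It was present in 5 of the 9 genes (Casp2, Ei24, Bcl2l11, Mcl1 and Bcl2), or 55.6%, and in 18% of 10328 kept genes with a 3′ UTR. The median 3′ UTR length was 1477 bases in the former and 1188 in the latter. Casp2 and Ei24 are on the list of miR-294 targets that the study took from earlier bulk arrays, which had required a seed match, and the other 7 genes are not. The authors had also removed a few mimic-transfected cells in which the listed targets were not lower, so the cells were in part selected on a measure that includes Casp2 and Ei24. The let-7 match, CTACCTC, was found in 1 of the 9 genes (Bcl2l1) and in 10.5% of kept genes. The windows of 30 bases around the matches (match in capitals, message strand) are given for the genes whose levels are described most fully.

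Casp2 3′ UTR, position 1081 of 2031, chr6:42281546-42281575, plus strand: atataacctagaAGCACTTgtctctgctct
Ei24 3′ UTR, position 212 of 948, chr9:36779878-36779907, minus strand: agctgtttttttAGCACTTgccagctcctg
Mcl1 3′ UTR, position 1819 of 2353, chr3:95662630-95662659, plus strand: ttcggacttcagAGCACTTtatgtagttga
Bcl2l11 3′ UTR, position 1251 of 4218, chr2:128159568-128159597, plus strand: tatgccgagtaaAGCACTTgtcttccacaa
Bcl2l1 3′ UTR, position 947 of 1477, chr2:152781181-152781210, minus strand: ccaggggcttccCTACCTCaggcaggaagg

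A match is a description of the sequence and does not show binding. Bcl2l11 held 3 miR-294 matches and Bcl2 held 2, whereas Casp8, Bax and Bak1 held neither match.

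Levels of different genes were compared per length, as FPKM (fragments scaled by transcript length and library depth). In Dgcr8-/- cells (n = 60), Bax stood highest, with a mean of 112.9 ± 87.5 FPKM. Next came Mcl1 (33.7 ± 24.2), Bcl2l1 (31.8 ± 36.9), Ei24 (30.8 ± 40.7) and Casp2 (18.5 ± 28.04), whose means lay within 1 SD of each other. Bcl2l11 (4.16 ± 13.6), Casp8 (1.62 ± 8.56), Bak1 (0.789 ± 2.27) and Bcl2 (0.0129 ± 0.0718) were low. Among the effectors Bax thus stood above Bak1, and among the anti-apoptotic genes Mcl1 and Bcl2l1 stood above Bcl2. Bax was also the highest of the 9 in WT (61.7 ± 56.2), miR-294 (145.9 ± 79.5) and let-7 cells (112.7 ± 79.1).

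How often each gene was counted at all set the genes apart in a broadly similar way, but not in the same order. In Dgcr8-/- cells Bak1 was counted in 33.3% of cells, Bcl2l11 in 26.7% and Casp8 in 11.7%. Bax and Mcl1 had at least 1 count in 96.7 to 100% of the cells of each condition. Ei24 and Bcl2l1 were counted in most cells of each condition, Casp2 in most Dgcr8-/- cells and in fewer of the others, and Bcl2l11, Casp8, Bak1 and Bcl2 in a minority everywhere. The intervals given for shares are exact binomial (Clopper-Pearson) 95% intervals and, like those for summed counts (exact Poisson), cover counting error only, since reads without molecular identifiers are not independent molecules.

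**Figure D1:**
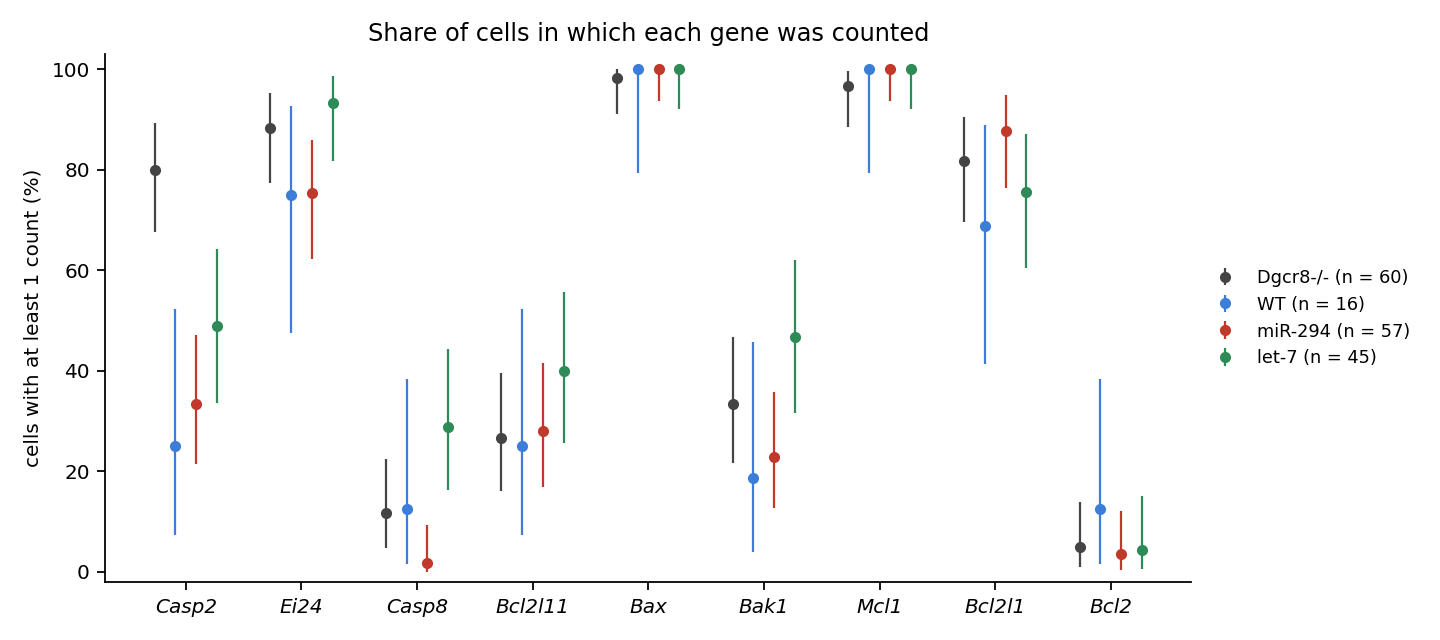
Share of cells (%) in which each of the 9 genes had at least 1 count, by condition (n cells in the key), with exact 95% binomial intervals as vertical lines. Casp2 lay at 80% in Dgcr8-/- cells and between 25 and 48.9% in the other conditions, while Bax and Mcl1 lay near 100% throughout.

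Casp2 stood higher in Dgcr8-/- cells than in miR-294 or WT cells. Normalised counts (counts divided by a size factor for the depth of the cell) in Dgcr8-/- cells ran from 0 to 496.7 with a median of 25.4, and averaged 90.4 ± 131 (SD, n = 60). The miR-294 cells ran from 0 to 340.1 with a median of 0 and a mean of 22.2 ± 62.7 (n = 57). The WT cells had 0 in 12 of 16, and 1.90, 9.30, 19.2 and 60.4 in the other 4, giving a mean of 5.67 ± 15.5. Let-7 cells lay between, from 0 to 670.0 with a median of 0 and a mean of 59.2 ± 128 (n = 45). The cells of all conditions overlapped, and the highest single cell was a let-7 cell.

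The ratio of means put Casp2 4.07-fold lower in miR-294 than in Dgcr8-/- cells (log2 ratio of -2.02). Among miR-294 cells, 47 of 57 were below the Dgcr8-/- median, and a miR-294 cell exceeded a Dgcr8-/- cell with a probability of 0.240 (0.5 if the distributions matched). Against WT, the Dgcr8-/- mean was 15.9-fold higher (log2 ratio of 3.99, probability 0.812). The miR-294 mean was 3.91-fold above the WT mean, with a probability of 0.547. The share of cells with at least 1 Casp2 count was 80% (67.7 to 89.2) in Dgcr8-/-, 33.3% (21.4 to 47.1) in miR-294, 25% (7.27 to 52.4) in WT and 48.9% (33.7 to 64.2) in let-7 cells. After each cell was thinned to 500000 counts, these shares were 73.3, 28.1, 25 and 42.2%. The WT sum was 92 counts, 66.6% of the WT normalised level came from 1 cell, and without the highest cell of each condition the log2 ratio of Dgcr8-/- to WT was 5.37 and that of miR-294 to WT 3.03, so the ratios to WT depend on 1 cell. For let-7 against Dgcr8-/- cells the log2 ratio was -0.61, less than 2-fold, although 32 of 45 let-7 cells were below the Dgcr8-/- median (probability 0.347). As a difference of mean log2(normalised count + 1) it was -1.61, past 2-fold.

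Ei24 was also lower in miR-294 cells, but it was not low in WT cells. In Dgcr8-/- cells its normalised counts ran from 0 to 737.2 with a median of 50.4 and a mean of 93.9 ± 128 (n = 60). The miR-294 cells reached only 179.3, with a median of 12.9 and a mean of 25.6 ± 33.3 over 57 cells. WT cells ran from 0 to 472.9 with a median of 33.9 and a mean of 97.9 ± 138 (n = 16), and let-7 cells from 0 to 388.4 with a median of 99.9 and a mean of 116.5 ± 106 (n = 45). All conditions overlapped, and 7 Dgcr8-/-, 14 miR-294, 4 WT and 3 let-7 cells had no count.

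As a ratio of means, Ei24 was 3.67-fold lower in miR-294 than in Dgcr8-/- cells (log2 ratio of -1.88, probability 0.307), and 45 of 57 miR-294 cells were below the Dgcr8-/- median. It was 3.83-fold lower in miR-294 than in WT cells (log2 ratio of -1.94, probability 0.367). Between Dgcr8-/- and WT cells the log2 ratio was -0.06, with a probability of 0.532, and it kept its sign under 10 of 13 alternatives. Casp2 and Ei24 thus had similar ratios after miR-294 and unlike ones between the knockout and WT cells. The share of cells with an Ei24 count was 88.3% (77.4 to 95.2) in Dgcr8-/-, 75.4% (62.2 to 85.9) in miR-294, 75% (47.6 to 92.7) in WT and 93.3% (81.7 to 98.6) in let-7 cells, so that the lower miR-294 mean was found among cells that mostly still had counts. Of the 31-base words in Ei24 transcripts, 9.03% also occur in other genes, chiefly Gm26787, so some reads could be shared, while none of those of Casp2 do.

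**Figure D2:**
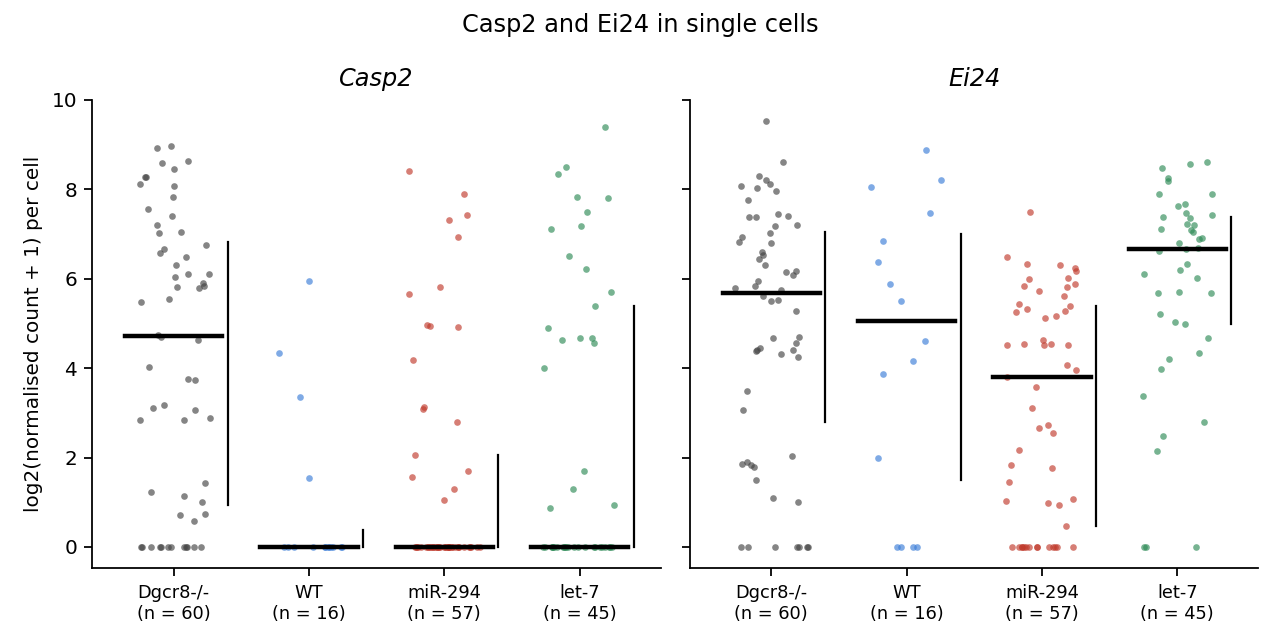
Casp2 and Ei24 in each cell, as log2(normalised count + 1), by condition. Points are cells, horizontal bars are medians and vertical lines span the middle 50% of cells. Most miR-294 and WT cells lay at 0 for Casp2, whereas for Ei24 the miR-294 median (12.9 normalised counts) was the lowest of the 4.

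Casp8, the initiator of the death receptor route, was counted in few cells: 7 of 60 Dgcr8-/-, 2 of 16 WT, 1 of 57 miR-294 and 13 of 45 let-7 cells. The shares were 11.7% (4.82 to 22.6), 12.5% (1.55 to 38.4), 1.75% (0.0444 to 9.39) and 28.9% (16.4 to 44.3). Mean normalised counts were 4.636 ± 25.01 in Dgcr8-/-, 0.311 ± 0.943 in WT, 5.05 ± 38.1 in miR-294 and 17.7 ± 68.6 in let-7 cells. The miR-294 mean was the count of 1 cell (287.9 normalised), and the highest cell held 67.7% of the Dgcr8-/- and 53.7% of the let-7 level. In let-7 cells Casp8 was 3.82-fold higher than in Dgcr8-/- cells by the ratio of means (log2 ratio of 1.93), but the probability that a let-7 cell exceeded a Dgcr8-/- cell was 0.584. The WT sum was 4 counts (95% interval 1.09 to 10.2), and the log2 ratio of Dgcr8-/- to WT, 3.899, was 4.07 with cells pooled (counting interval 2.70 to 5.95).

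Bcl2l11 was likewise carried by few cells. It was counted in 16 of 60 Dgcr8-/-, 4 of 16 WT, 16 of 57 miR-294 and 18 of 45 let-7 cells, with medians of 0 in all 4. The highest cell had 519.3 normalised counts in Dgcr8-/-, 4.79 in WT, 116.0 in miR-294 and 331.1 in let-7. Means were 29.2 ± 102.4, 0.800 ± 1.59, 8.02 ± 21.03 and 23.4 ± 61.3, in the same order. The ratio of means was 3.64-fold lower in miR-294 than in Dgcr8-/- cells (log2 ratio of -1.87), yet the share of cells with a count was 28.1% (16.97 to 41.5) against 26.7% (16.1 to 39.7), and the probability that a miR-294 cell exceeded a Dgcr8-/- cell was 0.508. At least 10 counts were found in 13.3% of Dgcr8-/- and 17.5% of miR-294 cells, and the difference of mean log2(normalised count + 1) was -0.03, so the ratio of means came from the highest cells. The WT sum was 12 counts (6.20 to 20.96) in 16 cells, against 1645 (1566 to 1726) in 60 Dgcr8-/- cells.

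Among the effectors, Bax was counted in 59 of 60 Dgcr8-/- cells and in every other cell. Its normalised counts in Dgcr8-/- cells ran from 0 to 636.1 with a median of 105 and a mean of 131 ± 116 (n = 60), in miR-294 cells the median was 132.5 and the mean 144.4 ± 84.1 (n = 57), and in let-7 cells the median was 117.9 and the mean 137.3 ± 99.7 (n = 45). WT cells were lower, from 4.10 to 208.2 with a median of 49.6 and a mean of 61.96 ± 55.3 (n = 16). Of the 57 miR-294 cells, 54 were above the WT median, and a miR-294 cell exceeded a WT cell with a probability of 0.825 (log2 ratio of means 1.22). For Dgcr8-/- against WT the log2 ratio was 1.08 with a probability of 0.70, and it fell under the 2-fold line at 0.81 when CPM were used. The log2 ratios to Dgcr8-/- cells were 0.14 for miR-294 and 0.07 for let-7. Bax spread least over miR-294 cells, with a coefficient of variation of 0.583 against 0.886 in Dgcr8-/- cells. Some 11.1% of the 31-base words of Bax occur in other genes, mostly Gm45808. Bak1 had sums of 126 counts (105.0 to 150.0) in Dgcr8-/-, 10 (4.79 to 18.4) in WT, 36 (25.2 to 49.8) in miR-294 and 149 (126.0 to 174.9) in let-7 cells, and 20.4% of its words are shared with Ggnbp1.

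Mcl1, a short-lived anti-apoptotic protein of the BCL-2 family, was higher in let-7 cells. Dgcr8-/- cells ran from 0 to 625.7 normalised counts with a median of 144.6 and a mean of 171 ± 127 (n = 60), and let-7 cells reached 1196 with a median of 361.3 and a mean of 423.5 ± 307 (n = 45). WT cells ran from 3.53 to 646.8 with a median of 198.9 and a mean of 222.4 ± 162 (n = 16), and miR-294 cells reached 376.0 with a median of 125.1 and a mean of 133.2 ± 91.3 (n = 57). All conditions overlapped, with the highest let-7 cells above every cell of the other conditions.

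The let-7 mean was 2.48-fold above the Dgcr8-/- mean (log2 ratio of 1.31), 37 of 45 let-7 cells were above the Dgcr8-/- median, and the probability that a let-7 cell exceeded a Dgcr8-/- cell was 0.775. The log2 ratio stayed between 1.13 and 1.51 over the 13 alternatives. Of all kept genes, 99.2% had a lower probability and 87.1% a lower ratio of means than Mcl1. The summed level of the embryonic stem cell markers was lower in the same let-7 cells (median of 1049 against 2514 CPM), and its part in the Mcl1 difference was not tested. A sum can be carried by its most abundant genes. The paper, which looked at pluripotency markers singly, reported no significant change in any of them across the conditions. Mcl1 was 1.67-fold lower in miR-294 than in WT cells (log2 ratio of -0.74, probability 0.325), and 1.28-fold lower than in Dgcr8-/- cells (-0.36, probability 0.420), both under 2-fold.

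Bcl2l1, which encodes the anti-apoptotic BCL-XL, had means of 102.1 ± 126 in Dgcr8-/- (median 57.9, highest 533.7, n = 60), 117.6 ± 126 in miR-294 (median 88.5, highest 512.4, n = 57) and 126.2 ± 139.6 in let-7 cells (median 52.02, highest 446.3, n = 45). WT cells had a mean of 32.2 ± 56.2 (median 12.3, highest 209.6, n = 16). The mean was 3.17-fold higher in Dgcr8-/- than in WT cells (log2 ratio of 1.67, probability 0.684) and 3.65-fold higher in miR-294 than in WT cells (1.87, probability 0.712). With cells pooled by depth, the Dgcr8-/- ratio to WT was 0.79 on the log2 scale, under 2-fold. In WT cells its normalised count went with the total count of the cell (Spearman's rho of 0.618 over 16 cells, a description), so the deeper WT cells held more of it. Bcl2l1 is the member with the let-7 match, and its log2 ratio of let-7 to Dgcr8-/- cells was 0.31, with a probability of 0.529. Bcl2 was nearly absent, with 6 counts (2.20 to 13.1) in 3 of 60 Dgcr8-/- cells, 19 in 2 of 57 miR-294 cells and 16 in 2 of 45 let-7 cells. Its 105 WT counts came from 2 of 16 cells, with 96.4% of the level in 1.

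**Figure D3:**
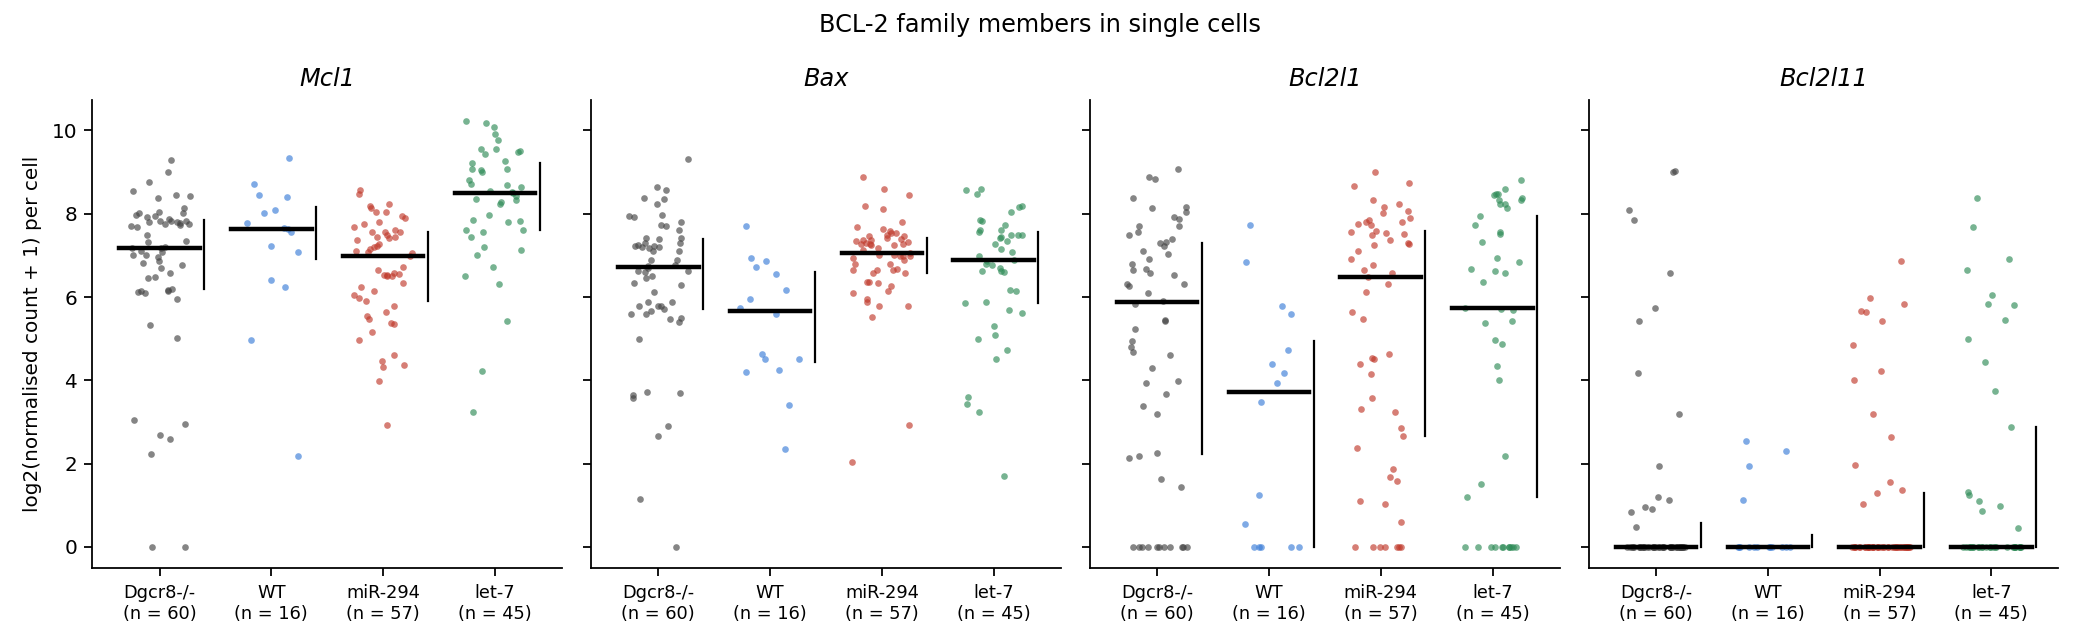
Mcl1, Bax, Bcl2l1 and Bcl2l11 in each cell, as log2(normalised count + 1), by condition. Points are cells, horizontal bars are medians and vertical lines span the middle 50% of cells. The let-7 median of Mcl1 (361.3 normalised counts) and the WT median of Bax (49.6) stand apart from those of the other conditions, and Bcl2l11 has a median of 0 in all 4.

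Many genes passed 2-fold in each comparison, so the members are counted beside all kept genes. For miR-294 against Dgcr8-/-, 3 of the 7 kept members were at least 2-fold lower (Casp2, Ei24 and Bcl2l11) and 0 higher, where 20.6% of all kept genes were lower and 5.84% higher. The median log2 ratio was -0.36 for the 7 and -0.28 for all genes, and 6.12, 7.20 and 7.32% of genes had a lower ratio than Casp2, Ei24 and Bcl2l11. By the probability measure, which does not rest on a few high cells, the corresponding shares of genes were 0.73, 2.92 and 56.5%. For let-7 against Dgcr8-/-, 0 members were lower and 2 higher (Casp8 and Mcl1), against 9.2 and 18.6% of all genes, so the share of members was near the background of higher genes. Casp8 passed the filter on mean count only through the let-7 cells, so its place among the higher members was favoured by the filter. It had 798 counts in 45 let-7 cells, against 287 in 60 Dgcr8-/-, 265 in 57 miR-294 and 4 in 16 WT cells. For Dgcr8-/- against WT, 0 were lower and 5 higher (Casp2, Casp8, Bcl2l11, Bax and Bcl2l1), against 9.39 and 32.2%, with medians of 1.67 for the members and 0.32 for all genes. Of those 5, Casp8 and Bcl2l11 had probabilities of 0.502 and 0.516, and the count was 3 with cells pooled and 2 as means of log2(normalised count + 1). For miR-294 against WT, 1 was lower (Ei24) and 5 higher, against 13.5 and 24.1%, and the medians were 1.87 and 0.04. The count of 5 was 2 as means of log2(normalised count + 1). The comparisons share their Dgcr8-/- or WT cells and are not independent of each other. The median of all genes depended on the scaling: for miR-294 against Dgcr8-/- it was -0.08 with CPM and -0.13 with TMM factors, and for Dgcr8-/- against WT 0.11 and 0.16. The log2 ratios of Casp2 and Ei24 after miR-294 were -1.84 and -1.68 with CPM and -1.91 and -1.68 with TMM factors, in each case more than 2-fold below these medians.

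**Figure D4:**
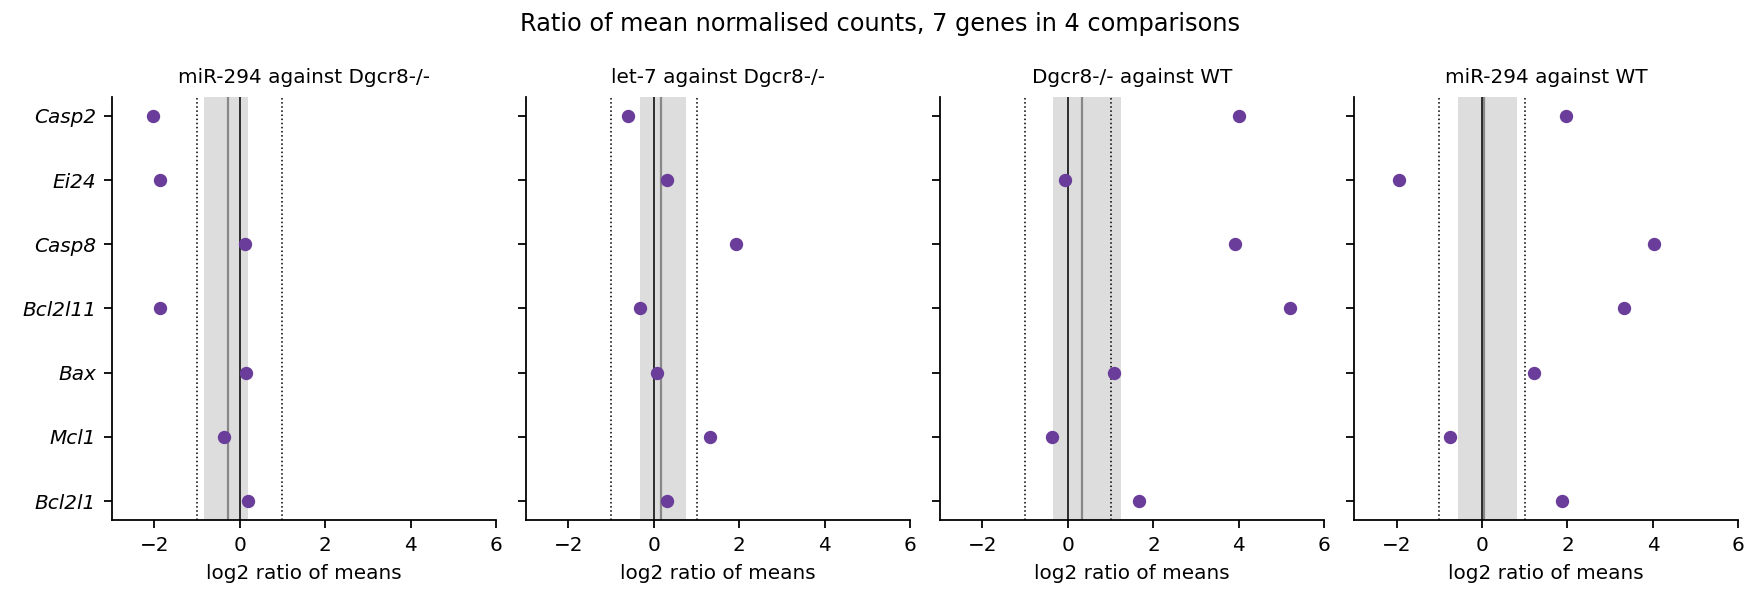
Log2 ratio of mean normalised counts for the 7 kept members in each of the 4 comparisons (points, first condition over second). The grey band spans the middle 50% of all kept genes, the grey line is their median and dotted lines mark 2-fold. Casp2 and Ei24 lie at -2.02 and -1.88 for miR-294 against Dgcr8-/- and at 3.99 and -0.06 for Dgcr8-/- against WT.

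The members did not rank the cells of a condition in a common order. Over the 21 pairs of the 7 kept members, Spearman's rho between cells had a median of -0.07 in Dgcr8-/-, -0.01 in WT, 0.00 in miR-294 and -0.07 in let-7 cells, with a range of -0.25 to 0.17 in the 60 Dgcr8-/- cells. Casp2 and Ei24 had a rho of 0.068 in Dgcr8-/- cells, 0.024 in miR-294 and -0.015 in let-7 cells, and one of 0.609 over the 16 WT cells, 12 of which had no Casp2 count. Neither gene followed depth in Dgcr8-/- cells (rho of 0.06 and -0.13 with the total count). In WT cells Ei24 went against depth, with a rho of -0.57 with the total count. In these sparse counts such weak values are descriptions only, and the points share chip and depth.

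Over all 178 cells, the genes most like Casp2 among 11227 were Adam19 (rho 0.362), Twf1 (0.354) and Dazap2 (0.346), all 3 on the list of miR-294 targets. Casp2 is itself on this list, and a few cells had been removed on the levels of listed genes. The share of listed genes among all kept genes was not counted, so the listing of all 3 cannot be weighed against a background. Twf1, an actin-binding protein gene, had means of 2399 normalised counts in Dgcr8-/-, 729.2 in WT, 741.8 in miR-294 and 2111 in let-7 cells. Those most like Ei24 were Aspa (0.382), Caps2 (0.342) and Fam122b (0.337), none of them listed. Likeness over all cells includes the differences between conditions, and within the Dgcr8-/- cells the values for Casp2 were 0.193, 0.111 and -0.236.

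The other apoptosis genes comprised 46 by role, of which 35 passed the filter. For miR-294 against Dgcr8-/-, 6 of the 35 were at least 2-fold lower and 1 higher, where 20.6% of all kept genes were lower and 5.84% higher. The median log2 ratio was -0.26 (-0.28 for all genes). Among the initiator caspases and adaptors (8 kept, 3 lower), the lowest ratios were those of Ripk1, a kinase of the receptor complex (mean of 67.3 in Dgcr8-/- and 12.6 in miR-294 cells, log2 ratio -2.41), and Fadd, the adaptor of caspase 8 (28.4 and 7.84, -1.86). Aifm1, which encodes a mitochondrial flavoprotein released in cell death, was 4.44-fold lower (122.0 and 27.5, log2 ratio -2.15, probability 0.240) and was the single gene of the 46 on the list of miR-294 targets. Of the 5 inhibitor of apoptosis (IAP) genes, Birc3 (-1.83, and -1.02 with cells pooled) and Birc2 (-1.23) were lower. Birc3 was counted in 19 of 60 Dgcr8-/- and 8 of 57 miR-294 cells, with 57.4% of its miR-294 level in 1 cell. With cells pooled, Birc2 (-0.70) and the adaptor Apaf1 (-1.12, and -0.82 pooled) were under 2-fold. Casp6, an executioner caspase, was higher (4.84 and 14.5, log2 ratio 1.58). No gene of the anti-apoptotic, effector, BH3-only, death receptor or channel lists passed 2-fold.

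For let-7 against Dgcr8-/-, 3 of the 35 were lower and 4 higher, where 9.2% of all kept genes were lower and 18.6% higher, and the median was 0.19 (0.18 for all genes). Bid, a BH3-only gene, was 2.48-fold higher (57.03 and 141.1, probability 0.669). Bcl2l2, which encodes the anti-apoptotic BCL-W, had a log2 ratio of 2.64, but 87.3% of its let-7 level came from 1 cell. Like Casp8, Bcl2l2 passed the filter on mean count only through the let-7 cells. The nuclease gene Dffb (8.97 and 43.95, log2 ratio 2.29, probability 0.582) was higher by the ratio of means. It was counted in 9 of 60 Dgcr8-/- and 14 of 45 let-7 cells. Pidd1 (41.1 and 9.69, -2.09) and Birc5, the mitotic IAP gene survivin (160.8 and 70.3, -1.19), were lower. Pidd1 was counted in 25 of 60 Dgcr8-/- and 5 of 45 let-7 cells, with 48.5% of its let-7 level in 1 cell. With cells pooled Birc5 was at -0.84, under 2-fold.

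For Dgcr8-/- against WT, 15 of the 35 were higher and 2 lower, where 32.2% of all kept genes were higher and 9.39% lower, and the median was 0.84 (0.32 for all genes). The initiator caspase and adaptor list had 6 of 8 genes higher, led by Fadd (28.4 and 1.36, log2 ratio 4.39) and Ripk1 (67.3 and 4.70, 3.84). Others past 2-fold were Birc3 (5.64), Bcl2l2 (3.41), Bad (2.51), Casp6 (1.89), the death receptor gene Tnfrsf10b (1.82), Pmaip1 (1.68), the outer membrane channel gene Vdac1 (1.18) and Bag3 (1.08). With cells pooled, Pmaip1 (0.86), Bag3 (0.93), Apaf1 (1.36, and 0.30 pooled) and, narrowly, Vdac1 were under 2-fold. Dffb (-1.75, probability 0.471) and Htra2 (-1.17, probability 0.396) were lower in Dgcr8-/- cells by the ratio of means. Dffb was counted in 3 of 16 WT cells, with 59.1% of its WT level in 1 of them. Birc3, Bcl2l2 and Casp6 were each counted in 1 WT cell, so their ratios rest on very few WT counts. Fadd had 26 counts over the 16 WT cells and Ripk1 had 52, in 3 of them, so these ratios also rest on few WT counts. Vdac1, by contrast, was counted at 824.8 ± 356 in Dgcr8-/- and 365.1 ± 237 in WT cells, with a probability of 0.862.

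**Figure D5:**
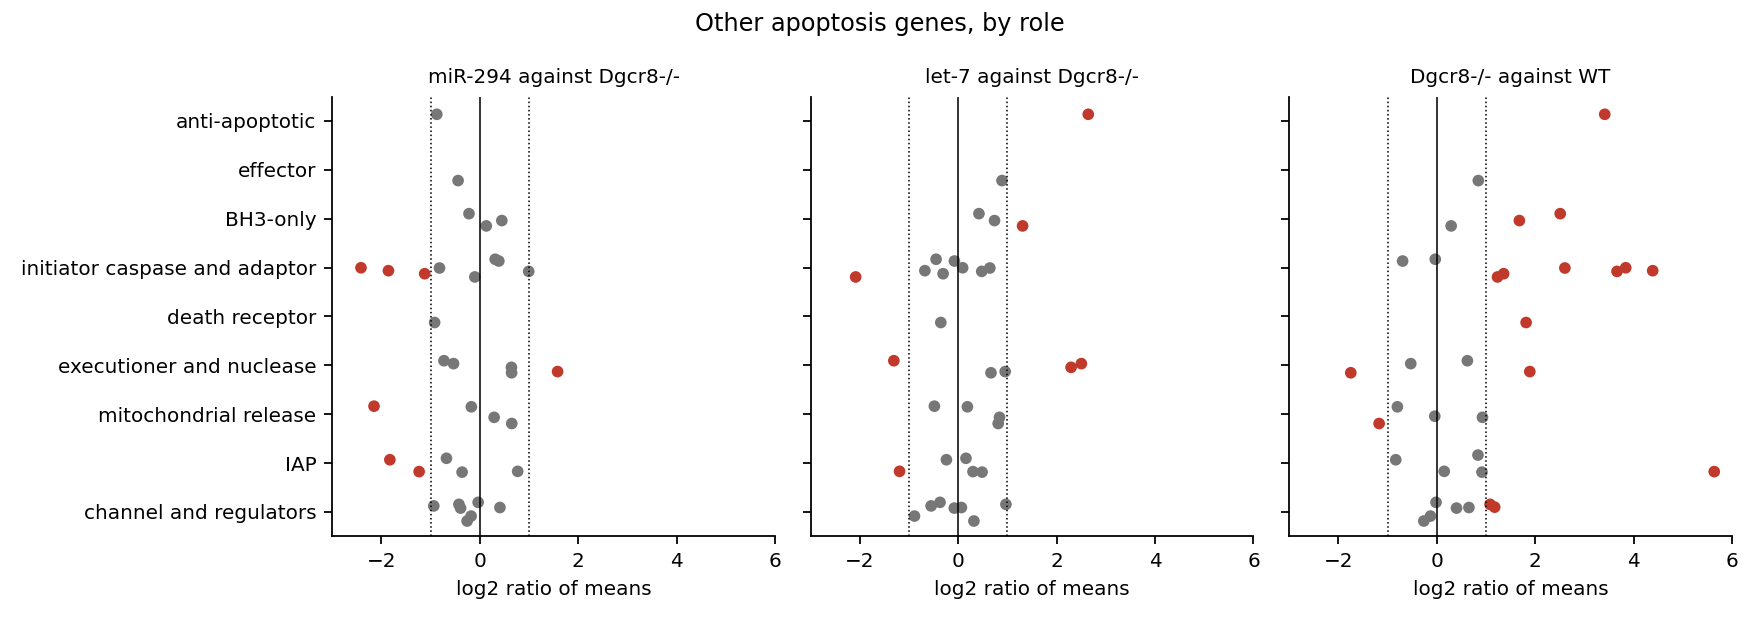
Log2 ratio of mean normalised counts for the 35 kept genes of the other apoptosis lists, by role, in 3 comparisons (points, first condition over second, red where at least 2-fold, dotted lines at 2-fold). Genes without a WT count have no ratio and are not drawn for Dgcr8-/- against WT. Of the 8 initiator caspase and adaptor genes, 3 are at least 2-fold lower for miR-294 against Dgcr8-/- and 6 at least 2-fold higher for Dgcr8-/- against WT.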

How the data were processed

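Single-cell libraries were prepared on the Fluidigm C1 system with Nextera XT. The authors aligned reads to Gencode M4 transcripts with RSEM 1.2.19, standard parameters, and the authors deposited 2 values per gene in every run: an unnormalized expected count and an FPKM, scaled for length and depth. Sites with dead or several cells, shallow libraries and a few cells without lower listed targets had been removed by the authors.

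The expected counts of runs from 1 cell were added and rounded to whole numbers. Size factors were the medians of ratios over the 864 genes counted in every cell. A gene was kept at a mean count of at least 5. Conditions were compared by the ratio of mean normalised counts, with at least 2-fold counted as lower or higher, and by the probability that a cell of one exceeds a cell of the other (ties as 0.5). No test was made, since each condition is 1 chip. The code was tested on simulated counts. Python 3.11.15, numpy 2.4.6, scipy 1.17.1, pandas 2.3.3, matplotlib 3.10.9, R 4.3.3 and edgeR 4.0.16 (TMM factors only) were used. FPKM served to compare genes per length and as an alternative. Total counts of 513521 or more per cell limit the precision of genes at a few counts.

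The members, gene lists and settings were chosen with earlier results of these data known. The text names all members, up to 2 genes of each list with the largest ratios of at least 2-fold in each direction, and the 3 genes most like Casp2 and Ei24, except for a few genes that are included in the counts but not reported here. Matches were searched in the longest 3′ UTR of each gene in the Gencode M21 basic annotation (GRCm38). Early differentiation markers were also listed: the 6 genes had a median summed level of 0 in every condition and were counted in 18 Dgcr8-/-, 4 WT, 12 miR-294 and 21 let-7 cells. The share of mitochondrially encoded counts had medians of 3.68, 2.73, 2.38 and 3.38% in the same order. Alternatives changed the scaling, the filter, the mean, the cells and the runs used, the depth, the unit and the fold. Leaving out the 2 cells with unlike runs was added after seeing the data.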

Additional observations from a re-analysis of the deposited data

How the results depend on the processing

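Each comparison was recomputed under 13 alternatives that yield log2 ratios, and under a fold threshold of 1.5. Casp2 and Ei24 were at least 2-fold lower in miR-294 than in Dgcr8-/- cells under all 13, with log2 ratios of -2.78 to -1.46 and -1.90 to -1.12. Mcl1 was at least 2-fold higher in let-7 than in Dgcr8-/- cells under all 13 (1.13 to 1.51). The ratio of Casp8 in miR-294 to WT cells, 4.02, reversed to -0.072 as a difference of mean log2(normalised count + 1). With the highest cell left out it had no value, since 1 of 57 miR-294 cells held its counts. The log2 ratio of Bcl2l11 in let-7 to Dgcr8-/- cells kept its sign under 9 of 13. Without the 2 cells with unlike runs the counts of members did not move.

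Counts moved by over 1.5 times as follows, and the cause was not tested. As means of log2(normalised count + 1), miR-294 against Dgcr8-/- had 3 other apoptosis genes lower and 6 higher. Let-7 against Dgcr8-/- had 1 member (Casp2) lower and 1 higher, Dgcr8-/- against WT 2 members higher and 5 other genes lower, and miR-294 against WT 2 members higher, 1 other gene lower and 7 higher. With log2(normalised count + 10), miR-294 against Dgcr8-/- had 1 other gene lower, let-7 against Dgcr8-/- 1 member and 1 other gene higher, Dgcr8-/- against WT 2 members higher, 1 other gene lower and 4 higher, and miR-294 against WT 0 members and 0 other genes lower, 2 members and 4 other genes higher. With pooled cells, 4 other genes were higher for miR-294 against Dgcr8-/-, and 3 members were higher and 4 other genes lower for Dgcr8-/- against WT. With the highest cell left out, 3 other genes were higher for miR-294 against Dgcr8-/-, and 2 members and 0 other genes lower for miR-294 against WT. For miR-294 against Dgcr8-/-, other genes higher were 2 with CPM, TMM factors, the first run alone or thinning, and 3 with FPKM. The first run alone gave 1 other gene lower for Dgcr8-/- against WT, and counting titles of 1 library as separate cells gave 1 for miR-294 against WT. At 1.5-fold, 12 other genes were lower and 6 higher for miR-294 against Dgcr8-/-, 1 member and 5 other genes lower and 12 higher for let-7 against Dgcr8-/-, 5 other genes lower for Dgcr8-/- against WT, and 2 members and 4 other genes lower for miR-294 against WT. No paired analysis was possible because the replicate numbers in the labels are sequencing runs of 1 cell. Counts near 0 limit Casp8, Bak1, Bcl2 and the WT values of Bcl2l11.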
